A study of Caenorhabditis elegans with 2 samples.

Results

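The *zip* genes of *Caenorhabditis elegans* encode transcription factors of the basic leucine zipper (bZIP) family, and the binding of ATF-7, itself a bZIP protein, was examined at 9 of them, *zip-1*, *zip-2*, *zip-3*, *zip-4*, *zip-5*, *zip-8*, *zip-10*, *zip-11* and *zip-12*. The genes were taken by name, and all 9 were found among the 19973 protein-coding genes of the WBcel235 annotation. For each gene the window from 5 kb upstream of its outermost 5′ end to the gene end was examined, which is called the gene's span here. Binding was measured by chromatin immunoprecipitation with sequencing (ChIP-seq) in whole young adults of strain OP638, unc-119(tm4063) III with wgIs638, grown from L1 larvae starved after bleaching, with both sexes pooled. The worms carry a transgene for ATF-7 whose C-terminus is joined to GFP and FLAG, and the description in the labels gives anti-GFP as the antibody, while their antibody field names atf-7. There was 1 group with 2 biological replicates, numbered 2 and 3, and no other condition, so no result below is a difference between conditions. Whole worms were used, so a peak does not say in which tissue the factor was bound.

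A bZIP protein binds DNA through a basic region and pairs through its leucine zipper with itself or with another member of the family. Family members often act in networks in which the gene of one factor is bound by another. ATF-7 is a target of PMK-1, the p38 kinase of worm immunity. Dimers of the ATF and CREB subfamily bind the cyclic-AMP response element (CRE), TGACGTCA, and its core TGACG. Among the genes examined, *zip-2* is known for the response to *Pseudomonas aeruginosa* and to blocked translation, *zip-1* for the response to intracellular pathogens, *zip-3* as a repressor of the mitochondrial unfolded protein response, and *zip-10* for the response to cold shock.

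The sequences under 6 of the peaks are shown first, because most of them carry sites described below. Each is 131 bases of the WBcel235 genome sequence (RefSeq, the same assembly as ce11), with the summit in the middle, read 5′ to 3′ along the strand of the gene. Capitals mark the core TGACG in either orientation, a CRE with 1 mismatch, and the GATA site TGATAA in either orientation. Sites were searched up to 100 bp from a summit, so the GATA site of *zip-5* lies beyond the sequence shown. The sequence of *zip-1* holds no marked site. The upstream peak of *zip-2* and the peak of *zip-11* are left out because they reach into untranslated exons.
*zip-2*, downstream peak, chrIII:833821-833951, + strand: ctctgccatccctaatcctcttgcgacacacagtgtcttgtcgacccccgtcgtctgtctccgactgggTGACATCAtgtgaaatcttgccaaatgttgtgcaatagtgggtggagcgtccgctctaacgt
*zip-10*, chrV:11650917-11651047, − strand: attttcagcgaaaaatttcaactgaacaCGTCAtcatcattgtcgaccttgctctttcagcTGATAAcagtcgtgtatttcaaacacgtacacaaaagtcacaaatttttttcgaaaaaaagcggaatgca
*zip-5*, chrV:13269440-13269570, + strand: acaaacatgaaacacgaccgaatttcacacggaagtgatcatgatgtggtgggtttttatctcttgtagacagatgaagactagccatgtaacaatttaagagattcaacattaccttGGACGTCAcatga
*zip-12*, distal peak, chrIII:12325385-12325515, + strand: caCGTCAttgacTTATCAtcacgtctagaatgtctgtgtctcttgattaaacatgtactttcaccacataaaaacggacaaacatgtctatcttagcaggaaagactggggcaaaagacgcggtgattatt
*zip-12*, proximal peak, chrIII:12327606-12327736, + strand: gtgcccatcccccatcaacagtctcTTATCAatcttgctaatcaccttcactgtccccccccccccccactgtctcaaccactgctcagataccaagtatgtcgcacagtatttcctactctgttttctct
*zip-1*, chrIII:12335467-12335597, + strand: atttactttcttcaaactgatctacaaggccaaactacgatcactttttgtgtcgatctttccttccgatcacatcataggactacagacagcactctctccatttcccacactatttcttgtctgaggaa

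ATF-7 peaks were found at most of the *zip* genes. The authors' list filtered by irreproducible discovery rate (IDR), whose entries are called IDR peaks here, had a summit in the span of 7 of the 9 genes, against 15.4% of all protein-coding genes. These were *zip-1*, *zip-2*, *zip-4*, *zip-5*, *zip-10*, *zip-11* and *zip-12*, with 9 IDR peaks between them. *zip-2* and *zip-12* had 2 IDR summits each, and at least 2 were found in 3.28% of all genes. *zip-3* and *zip-8* had none. A promoter was taken from 1000 bp upstream to 200 bp downstream of any protein-coding transcript's 5′ end, and 6 of the 9 genes had an IDR summit in one, against 6.23% of all genes. The IDR peak of *zip-5* and the distal one of *zip-12* lay outside the promoters of their genes. The members were listed by name with earlier results of these data known, so these counts are given as a description, without a test.

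Spans differ in length, so the density of peaks was also compared. The spans of the *zip* genes ran from 5684 bp at *zip-10* to 16640 bp at *zip-1*, with a median of 7833 bp, against 7027 bp for all genes. They held 0.109 IDR summits per kb, against 0.0241 per kb over the spans of all protein-coding genes. Pooled relaxed peaks, which include background regions, stood at 0.547 per kb against 0.314. Of 20 other bZIP genes in the annotation, 15 had an IDR summit in the span and 10 in a promoter. These 20 genes include *atf-7* itself and the further *zip* genes *zip-6*, *zip-7* and *zip-9*, which are not among the members. Their spans held 0.157 IDR summits per kb, and no test was made between them and the 9 *zip* genes examined.

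**Figure D1:**
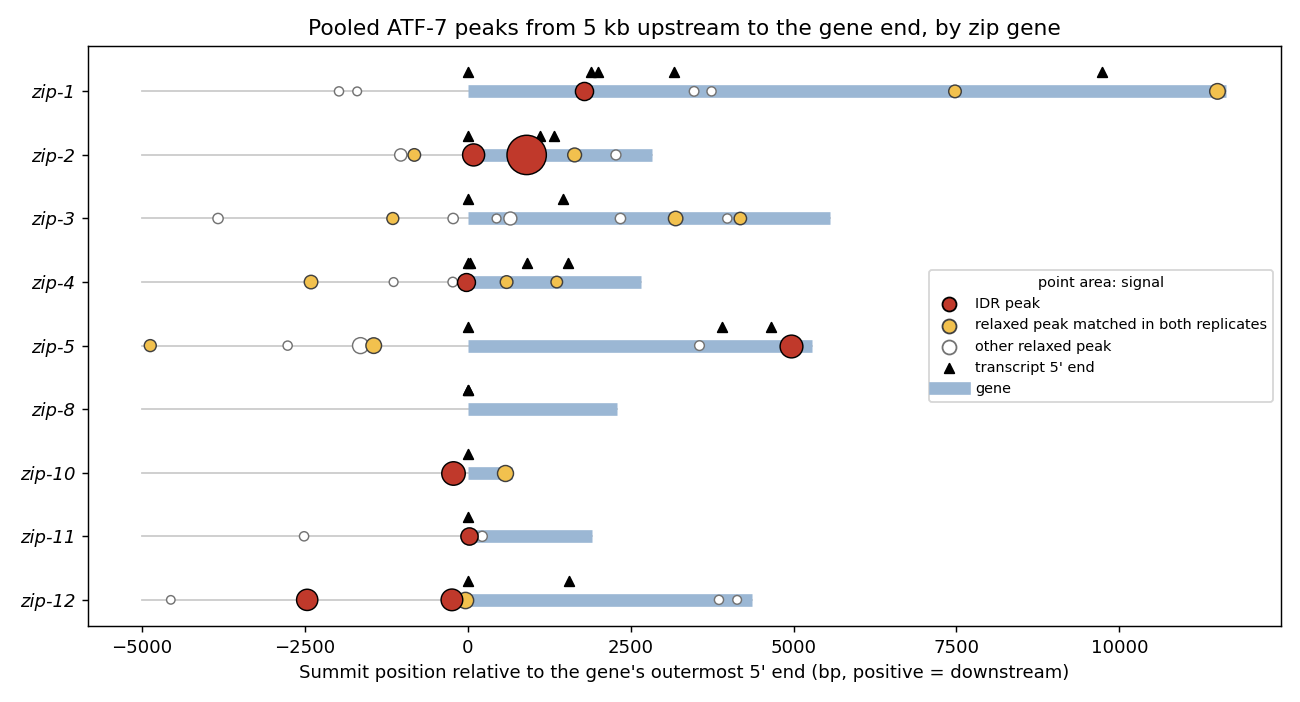
Position of every pooled peak in the span of the 9 *zip* genes, in bp from the gene's outermost 5′ end, with point area proportional to the authors' signal. The 9 IDR peaks (red) lie at 7 genes, 5 of them inside the annotated gene, and *zip-8* has no pooled peak at all.

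All 2247 IDR peaks were the 2247 pooled peaks of highest signal, so at a *zip* gene an IDR peak meant a pooled signal of at least 104.6. The signal is the authors' own value per peak, and its scale differs between lists. Ranks by signal within a list are therefore given beside it, with 1 as the strongest of 28126 peaks in replicate 2, 30000 in replicate 3 and 30000 in the pooled list. The number of reads is not given in the files. Peaks of worms without the tagged protein were not analysed here, so the part of regions that give peaks with any antibody was not tested.

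*zip-2* had by far the strongest peak of the 9 genes. The gene (WBGene00019327) lies on chrIII:832982-835814, + strand, and its downstream IDR peak, chrIII:833683-834060, had its summit in an intron, 904 bp downstream of the outermost 5′ end and 202 bp upstream of an internal transcript 5′ end at 834088. Its pooled signal was 594, its signal in replicate 2 was 189.6 and its signal in replicate 3 was 408. It stood at rank 34 in the pooled list, 63 in replicate 2 and 26 in replicate 3, and both replicate summits lay within 3 bp of the IDR summit. Only 0.315% of all protein-coding genes had a stronger pooled peak in their span. The upstream IDR peak of *zip-2*, chrIII:833023-833179, lay 814 bp away, 90 bp downstream of the outermost 5′ end, where the summit falls in an intron of *zip-2* and in the annotated long non-coding RNA *linc-37*, which shares the strand. Its pooled signal was 187, with 66.3 in replicate 2 and 121 in replicate 3, at ranks 858 and 693. Both *zip-2* peaks were thus within the strongest 1000 of each replicate. The closest 5′ end of another protein-coding gene was that of the divergent gene *ceeh-1*. The upstream summit lay 795 bp upstream of it, inside the promoter of *ceeh-1* as defined above, so this peak cannot be given to either gene alone. The downstream summit lay 1609 bp upstream of *ceeh-1*, outside that promoter.

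*zip-10*, a gene of 684 bp with a single annotated 5′ end (WBGene00012101, chrV:11650079-11650762, − strand), had the second strongest peak. Its IDR interval was 147 bp, against a median of 436 bp over all IDR peaks and 157 bp at the upstream *zip-2* peak. In replicate 2 its interval, chrV:11650772-11651211, was not narrow. The IDR peak lay at chrV:11650868-11651014 in intergenic sequence, with its summit 220 bp upstream of the 5′ end. Its pooled signal was 211, with 82.4 in replicate 2 and 134 in replicate 3. The replicates placed it alike, at rank 503 in replicate 2 and 543 in replicate 3. A second pooled peak in the 3′ UTR, 571 bp downstream of the 5′ end, fell just outside the IDR list with a signal of 98.0. That peak was at rank 1197 in replicate 2 and 5618 in replicate 3, so the replicates differed on it. The convergent gene *skp-1* ends inside the interval of this peak, though not at its summit.

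*zip-5* and *zip-12* followed. The IDR peak of *zip-5* (WBGene00007932, chrV:13264545-13269827, + strand) lay at chrV:13269287-13269722 in an intron near the 3′ end of the gene, 4960 bp downstream of the outermost 5′ end and 322 bp before the gene end. The closest annotated 5′ end of *zip-5* is that of an internal transcript 309 bp upstream of the summit. The pooled signal was 199, with 52.7 in replicate 2 (rank 1430) and 141 in replicate 3 (rank 489). Upstream of *zip-5*, at 1646 bp and 1443 bp from the 5′ end, 2 pooled peaks with overlapping intervals missed the IDR list with signals of 97.3 and 93.4.

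At *zip-12* (WBGene00013560, chrIII:12327914-12332275, + strand) both IDR peaks were upstream of the gene in intergenic sequence. The proximal one, chrIII:12327453-12327888, had its summit 243 bp upstream of the 5′ end, with a pooled signal of 179.9 and 143 in replicate 3 (rank 472). In replicate 2 no summit lay within 100 bp of it, and the closest, 117 bp away, had a signal of 50.7 (rank 1566). A further pooled summit 44 bp upstream of the 5′ end, at a signal of 102, was the member peak closest below the IDR list, and the same replicate 2 peak is within 100 bp of that one. The distal IDR peak, chrIII:12325232-12325667, was 2464 bp upstream, with a pooled signal of 173, 57.8 in replicate 2 (rank 1186) and 114 in replicate 3 (rank 781). *Y75B8A.63*, a protein-coding locus annotated inside the start of *zip-12*, has the closest other 5′ end to both peaks. The proximal summit lay 276 bp upstream of that 5′ end and the distal one 2497 bp upstream. The proximal peak is thus in the promoters of both genes and cannot be given to either alone.

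The peaks of *zip-1*, *zip-4* and *zip-11* were the weakest of the 9, and in each the replicates placed them on different sides of rank 2247, the size of the IDR list. *zip-1* (WBGene00006986, chrIII:12333745-12345384, + strand) starts 1469 bp beyond the end of *zip-12*, and part of *zip-12* lies in its span. Its IDR peak, chrIII:12335314-12335749, was in an intron 1787 bp downstream of the outermost 5′ end, but 111 bp upstream of an internal 5′ end at 12335643. The pooled signal was 126, with 40.4 in replicate 2 (rank 2705) and 84.6 in replicate 3 (rank 1482), and the summit of replicate 2 was 88 bp away. A pooled peak in its 3′ UTR missed the list with a signal of 93.4, at rank 2392 in replicate 3 and 7630 in replicate 2.

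*zip-11* (WBGene00021082, chrIV:3311276-3313189, + strand) had its IDR peak, chrIV:3311080-3311515, over the 5′ end, with the summit in the 5′ UTR 22 bp downstream of the start. The pooled signal was 114, with 62.9 in replicate 2 (rank 980) and 52.3 in replicate 3 (rank 3664). *zip-11* was the gene whose peak ranked far higher in replicate 2, while those of *zip-1* and *zip-4* ranked higher in replicate 3.

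At *zip-4* (WBGene00021552, chrI:3264111-3266762, − strand) the IDR peak, chrI:3266565-3267000, had its summit 21 bp upstream of the 5′ end and 311 bp upstream of the divergent gene *nol-58*, so the peak cannot be given to either gene alone. The pooled signal was 123, with 36.4 in replicate 2 (rank 3440) and 92.9 in replicate 3 (rank 1216). In replicate 2 the strongest peak of the *zip-4* span was another one, 621 bp downstream of the 5′ end, at a signal of 43.2 (rank 2324). The sequence of this peak is not shown.

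**Figure D2:**
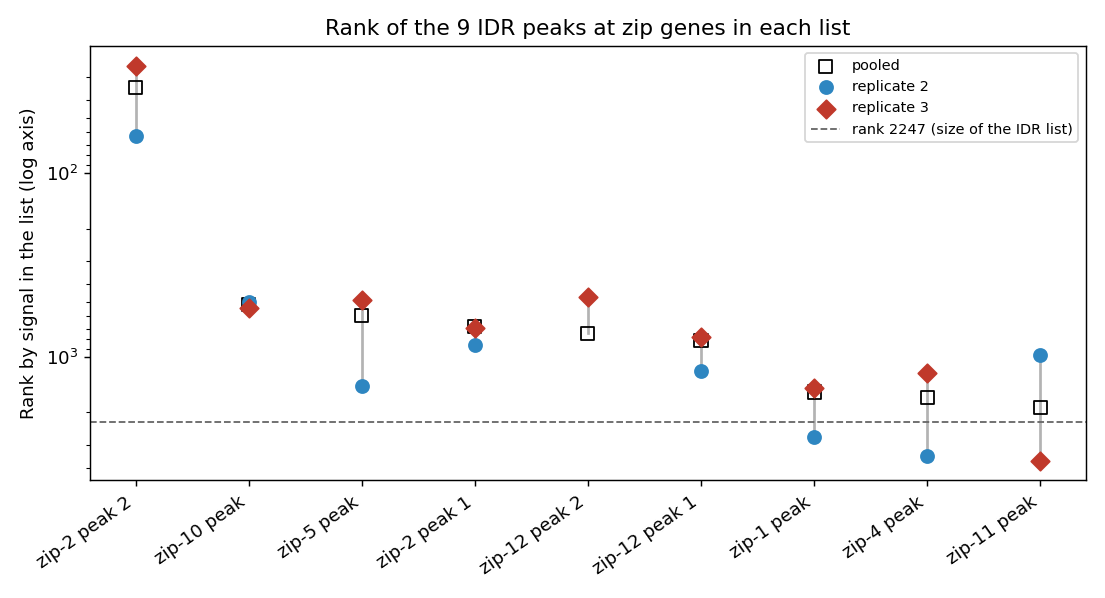
Rank by signal of the 9 IDR peaks in the pooled list (squares), replicate 2 (circles) and replicate 3 (diamonds), on a log axis with the strongest at the top and the peaks ordered by pooled rank. The downstream *zip-2* peak stands apart at ranks 26 to 63, and the peaks of *zip-1*, *zip-4* and *zip-11* have a replicate below rank 2247, drawn as a dashed line. The proximal *zip-12* peak has no point for replicate 2.

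Over the 9 IDR peaks, 8 had a summit within 100 bp in both replicates, against 93.1% of all IDR peaks, and the exception was the proximal *zip-12* peak. Their pooled signals ran from 114 to 594 with a median of 179.9, against a median of 149 over all IDR peaks, and 6 of the 9 were above that median. The IDR list is built from the replicates, so a match in both is in part its own construction.

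The genes without an IDR peak differed from each other. *zip-3* (WBGene00012330, chrII:13951904-13957457, − strand) had 9 pooled relaxed peaks in its span, the most of any of the 9 genes, and 3 of them were matched in both replicates. The strongest, in an intron 3190 bp downstream of the 5′ end at chrII:13954049-13954484, had a pooled signal of 79.8 (rank 3719), with 29.3 in replicate 2 (rank 5921) and 53.0 in replicate 3 (rank 3558). The authors' q value of this peak was 0.00471 in the pooled list, 0.00267 in replicate 3 and 0.103 in replicate 2. A stronger pooled peak was found in the span of 22.5% of all genes, and the closest IDR summit was 60813 bp from the 5′ end of *zip-3*, a distance exceeded by 15.3% of genes.

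*zip-8* (WBGene00017755, chrIII:6478955-6481243, + strand) was empty. No pooled peak and no peak of replicate 3 had a summit in its span of 7289 bp, and the only peak of replicate 2 there had a signal of 13.96, at rank 27503 of 28126. Spans without a pooled peak were found for 27.7% of all genes, so this is a common state. The closest IDR summit was 14538 bp away, nearer than the median of 20397 bp over all genes.

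In the relaxed lists, 8 of the 9 *zip* genes had a pooled peak matched within 100 bp in both replicates, against 44.7% of all genes. The 9 spans held 43 different pooled peaks, of which 34 were not IDR peaks. Of these 34, 14 were matched in both replicates and 9 had a q value of at most 0.05. Among all 27753 pooled peaks that are not IDR peaks, 27.7% were matched in both replicates and 13.0% had such a q value. The pooled list is the authors' input of peaks and background for the IDR step, so most of its entries are weak. The weaker peaks with the highest signals were those named above at *zip-12*, *zip-10*, *zip-5* and *zip-1*, from 102 to 93.4, against 114 for *zip-11*, the lowest IDR peak of the group.

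**Figure D3:**
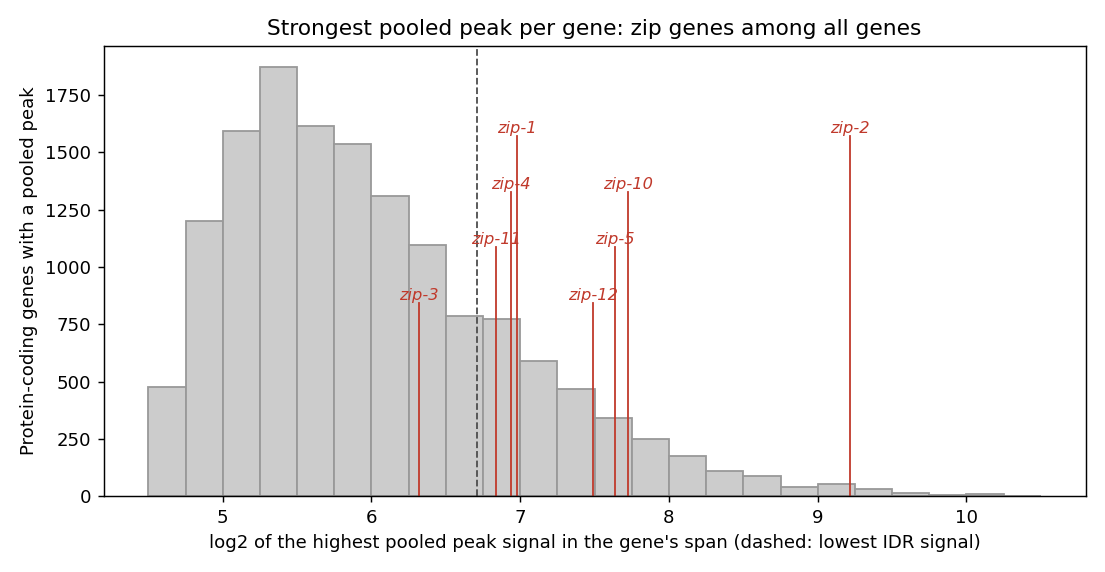
Number of protein-coding genes by the log2 of the highest pooled signal in their span (bars), with the *zip* genes marked and the lowest IDR signal dashed. *zip-2*, at a signal of 594, lies far to the right, *zip-3*, at 79.8, lies left of the dashed line, and *zip-8* is not drawn because it has no pooled peak.

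In 5 of the 9 IDR peaks the summit lay inside the annotated gene, in an intron at *zip-1*, *zip-5* and both *zip-2* peaks and in the 5′ UTR at *zip-11*. Over all IDR peaks, 41.9% had the summit inside a protein-coding gene. With the outermost 5′ end as the reference, the summits ran from 2464 bp upstream to 4960 bp downstream. With the closest annotated 5′ end of the same gene, 7 of the 9 were within a promoter, from 243 bp upstream to 90 bp downstream. Of all IDR peaks, 49.1% had the summit in a promoter of a protein-coding gene. The 9 peaks were taken for lying in a gene's span, which favours both places. The shares over all IDR peaks have no such requirement, so the sets are unlike. If the gene body is left out and the 5 kb upstream are kept, 3 of the 9 genes still had an IDR summit, *zip-4*, *zip-10* and *zip-12*, against 12.4% of all genes.

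The full CRE was at none of the 9 peaks. A search of either strand for TGACGTCA, up to 100 bp to each side of a summit, found it at 9.79% of all IDR peaks and 4.39% of the other pooled peaks, shares so low that its absence from 9 peaks is not a result about them. The 9 spans held 4 CRE sites, at *zip-1*, *zip-3*, *zip-4* and *zip-12*, and none of them was within 100 bp of a pooled summit. Of all 6026 CRE sites on the nuclear chromosomes, 4.36% were within 100 bp of an IDR summit and 26.1% within 100 bp of a pooled summit. The site closest to an IDR summit was 550.5 bp upstream of *zip-12*, at chrIII:12327360-12327367, 307.5 bp from the proximal one. The *zip-3* site was 260.5 bp from a pooled summit with a signal of 32.4.

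Near matches were present at 3 peaks. A CRE with at most 1 mismatch lay within 100 bp of the summit at both *zip-2* peaks and at the *zip-5* peak. This search was added after the sequences had been seen. It also counts the full CRE, and it found a site at 18.6% of all IDR peaks and 10.4% of the other pooled peaks. Positions are counted from 1 at the 5′ end of the CRE on the + strand. At the downstream *zip-2* peak, the strongest of the group, the site is G5A, read tgacatca, and its centre is 7.5 bp from the summit. At the upstream *zip-2* peak the site is C7T, 90.5 bp downstream of the summit, and at *zip-5* it is T1G, 56.5 bp downstream. The core TGACG, which is contained in the latter sites, lay within 100 bp of 5 of the 9 summits, against 40.4% of all IDR peaks and 28.4% of the other pooled peaks. They were those of *zip-5*, *zip-10*, *zip-11*, the upstream *zip-2* peak and the distal *zip-12* peak. Within 50 bp of the summit the core was left at 1 peak, that of *zip-10*, 35 bp upstream of the summit. The share of all IDR peaks with the core is given at 100 bp only, so this is not read as a low count.

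The GATA site TGATAA, bound by the intestinal GATA factors, was also within 100 bp of 5 of the 9 summits, against 28.0% of all IDR peaks and 17.9% of the other pooled peaks. At *zip-10* its centre was 1.5 bp from the summit, in the sequence shown above. The other GATA sites were at *zip-5*, both *zip-12* peaks and the upstream *zip-2* peak, which had 2. The E-box CACGTG (11.8% of all IDR peaks), the GA repeat GAGAGAGA (8.86%), the AP-1 sites TGACTCA and TGAGTCA (2.63%) and TTACGTAA (0.223%), a site of the PAR group of bZIP factors, were at none of the 9. The peaks of *zip-1* and *zip-4* had none of the 7 motifs and no CRE with 1 mismatch. The proximal *zip-12* window holds a run of 14 C bases close to the summit, and a run of C or G of at least that length was found in 0.668% of all IDR windows and 0.537% of those of the other pooled peaks. Its part in the peak was not tested.

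**Figure D4:**
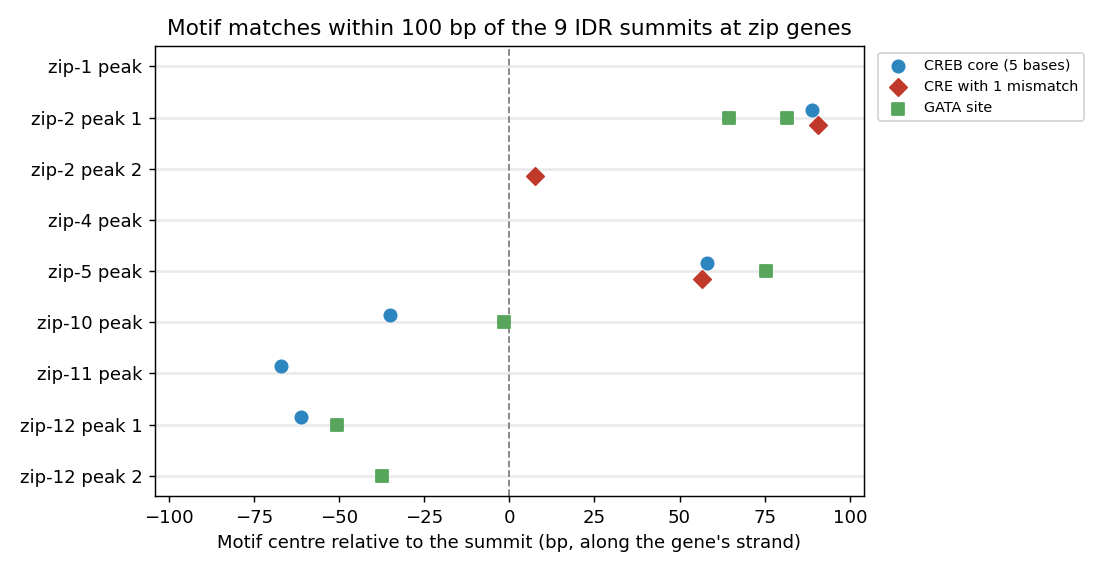
Centres of motif matches within 100 bp of the 9 IDR summits, in bp along the strand of the gene, for the core (circles), the CRE with 1 mismatch (diamonds) and the GATA site (squares). The near CRE of the downstream *zip-2* peak, at 7.5 bp, and the GATA site of *zip-10*, at -1.5 bp, are the matches closest to a summit.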

How the data were processed

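ATF-7 ChIP-seq peaks of 2 biological replicates of 1 group were used. The authors deposited, in build ce11, relaxed peak lists for replicate 2, replicate 3 and the pooled reads, and an IDR list derived from these 3, per the listing deposited with each sample. Neither aligner nor peak caller is named, and the IDR cut-off is not given in the sources used here. The deposited signal is the authors' value per peak, and the deposited −log10 q value was used at a threshold of 0.05. The ce10 lists were not used. Read depth is not known from the files.

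Summits were joined to the Ensembl 115 annotation of WBcel235, the assembly of ce11, with Python 3.11.15 and pandas 2.3.3. All peaks lay within its chromosomes. Coordinates are given from 1, and peaks within 100 bp by their summits were taken as the same. The counting was tested on simulated summits. The members, the list of 20 other bZIP genes and the motifs were chosen with earlier results of these data known, and no test was made. All 9 members are named. Other genes are named only where they share a peak with a member, lie beside it, or describe the list of other bZIP genes. *linc-37* and *skp-1* were chosen with their positions already known. Alternatives varied the span, the promoter, the match, the motif window, the list and the replicates.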

Additional observations from a re-analysis of the deposited data

How the results depend on the processing

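Of 35 alternatives over 7 counts, 27 stayed within 1.5 times the count given, and the 8 others are as follows. With the 5 kb upstream alone, without the gene body, 3 genes had an IDR summit in place of 7, and 4 IDR summits were left of 9. Among the 1123 IDR peaks of highest signal, 4 genes had one in the span (*zip-2*, *zip-5*, *zip-10* and *zip-12*), against 8.34% of all genes, and 3 in a promoter, against 3.38%. Of the 6 member peaks in that list 5 were matched in both replicates, in place of 8 of 9, so the lower count follows from fewer peaks. With summits matched within 50 bp, 5 IDR peaks were matched. The share of all IDR peaks matched is given at 100 bp only, so this drop is not read as a result about these genes. Within 50 bp of the summit, 1 peak in place of 5 had the core TGACG. For the core, too, the share over all IDR peaks is given at 100 bp only. With 1 mismatch allowed, a setting chosen after the data were seen, 3 peaks in place of 0 had a CRE.

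When the IDR list was replaced by the 2247 strongest peaks of a single replicate, the number of genes with a summit in the span was 6 without replicate 2 and 5 without replicate 3, against 15.1% and 14.7% of all genes. The number of summits was 8 and 9, and the number of genes with a summit in a promoter 5 and 5, against 6.27% and 5.90% of all genes. *zip-11* was lost without replicate 2, and *zip-1* and *zip-4* without replicate 3, where *zip-5* gained a summit in a promoter. No paired analysis was possible because there was 1 group. The depth is not known, so the absence of a peak at *zip-8* was not tied to a limit of detection.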
